A study of Mus musculus with 2 samples.

Results

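SET1 complex genes were examined in the RNA-seq values of DP thymocytes, the CD4+CD8+ stage of T-cell development, from WT and Cxxc1-deficient mice. The 10 genes were taken by symbol: Cxxc1, Setd1a, Setd1b, Wdr5, Ash2l, Rbbp5, Dpy30, Wdr82, Hcfc1 and Men1. All 10 were among the 21041 genes of the table, each with 1 value per library. The question was whether the partners of Cxxc1 were lower, higher or at a like level in cells in which Cxxc1 had been targeted.

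SET1 complexes place methyl groups on lysine 4 of histone H3, and its trimethylated form, H3K4me3, marks the start sites of active genes. The SETD1A or SETD1B protein is the catalytic subunit, and WDR5, RBBP5, ASH2L and DPY30 form a core module that the related MLL complexes share. CXXC1, also called CFP1, carries a zinc finger that binds unmethylated CpG and brings the complex to CpG islands.

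The data consisted of 2 mRNA-seq libraries of DP thymocytes, 1 per genotype. The WT library came from Cxxc1 fl/fl mice, and the Cxxc1-deficient library from Cxxc1 fl/fl hCD2-Cre mice, which carry the same floxed allele plus a Cre transgene under control of the human CD2 promoter, active in early thymocytes and in other immune cells. The floxed allele was made in strain 129 ES cells and crossed onto the C57BL/6 background, and mice were 3 to 4 weeks old unless specified otherwise. The genotype label of the deficient sample reads Cxxc1+/-, while its title reads KO; the study's methods describe the conditional deletion, and the library is called Cxxc1-deficient here. The number of mice in each library is not given in the sources used here.

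With 1 library per genotype no difference had a replicate check, so no test and no p-value is given, and each ratio compares those libraries rather than the genotypes. Deposited values are whole numbers without a stated unit, and the depth is unknown. A ratio is the Cxxc1-deficient value over the WT value, and its bounds are those that rounding to whole numbers allows, with no biological or counting error in them. The sum over all genes was 1551994 for WT and 981677 for the deficient library, and the median gene was at 36 in both. Fewer cells expressing a gene and less RNA per cell cannot be told apart in these bulk samples.

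The lists of marker genes differed between the libraries to unequal degrees. The 13 DP thymocyte markers summed to 44539 in the WT and 15336 in the deficient library. Rag1, at 20778 and 5058, was the largest part of both sums. All 13 were lower, beside 59.9% of all genes above 0 in at least 1 library. Their median log2 ratio was -1.82, and -0.41 after subtraction of the median of genes of a like mean level. The 5 DN (CD4-CD8-) markers summed to 191 and 388, and all 5 were higher. Of the 20125 genes above 0 in at least 1 library, 7493 were higher. Il2ra, a receptor chain of early thymocytes, at 63 and 207, was the largest part of the rise in the DN sum. Cd44 was at 35 and 58 and Hes1 at 28 and 52, while Kit (35 and 36) and Nrarp (30 and 35) differed little. Sums for WT and the deficient library were 348 and 298 for 5 mature SP markers, 183 and 149 for 6 B cell markers, 233 and 258 for 7 macrophage and dendritic cell markers, 104 and 129 for 6 erythroid markers, and 143 and 141 for 6 stromal and epithelial markers. Of these lists, 12 DP markers were above the highest olfactory receptor gene, a gene family that thymocytes do not use, in WT and 10 in the deficient library, 0 and 1 of the DN markers, 1 and 1 of the SP markers, 1 and 1 of the macrophage and dendritic cell markers, and 0 and 0 of the B cell, erythroid and stromal and epithelial markers, so the sums of the other lists lay largely at that background. The defining erythroid genes Hba-a1 and Hbb-bt were at 0 in both libraries. Of 15 Y-linked genes, 0 were above 0 in WT, and 7 were in the deficient library, at 2 to 67; the labels give no sex. The part of these differences in the values of the SET1 complex genes was not tested.

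Because CXXC1 binds CpG, the CpG content of some of the genes' promoters is shown. The genes are Rbbp5 and Wdr82, which had the lowest ratios, and Setd1a and Hcfc1, whose ratios were close to 1 as deposited. RefSeq promoters of build GRCm38.p6 matched 7 of the 10 genes by symbol. The windows are the 250 bases before the start site, on the strand of the gene, with each CG in capitals. They lie at chr1:132477117-132477366 (+ strand) for Rbbp5, chr9:106170679-106170928 (+ strand) for Wdr82, chr7:127777139-127777388 (+ strand) for Setd1a and chrX:73966358-73966607 (- strand) for Hcfc1.
Rbbp5: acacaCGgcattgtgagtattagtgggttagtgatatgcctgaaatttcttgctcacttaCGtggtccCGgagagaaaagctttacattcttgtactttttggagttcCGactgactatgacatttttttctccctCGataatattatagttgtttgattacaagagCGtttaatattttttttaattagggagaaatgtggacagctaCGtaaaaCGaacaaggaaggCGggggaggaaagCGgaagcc
Wdr82: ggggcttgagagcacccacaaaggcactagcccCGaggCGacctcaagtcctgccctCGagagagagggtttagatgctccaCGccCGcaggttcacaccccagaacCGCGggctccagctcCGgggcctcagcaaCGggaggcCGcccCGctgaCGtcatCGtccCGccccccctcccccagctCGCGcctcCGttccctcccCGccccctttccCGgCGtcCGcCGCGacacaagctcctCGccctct
Setd1a: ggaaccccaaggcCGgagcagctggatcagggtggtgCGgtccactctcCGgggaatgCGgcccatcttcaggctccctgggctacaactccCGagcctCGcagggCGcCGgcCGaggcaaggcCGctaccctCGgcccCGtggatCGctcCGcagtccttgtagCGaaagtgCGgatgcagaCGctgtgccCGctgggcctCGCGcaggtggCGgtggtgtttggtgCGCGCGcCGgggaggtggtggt
Hcfc1: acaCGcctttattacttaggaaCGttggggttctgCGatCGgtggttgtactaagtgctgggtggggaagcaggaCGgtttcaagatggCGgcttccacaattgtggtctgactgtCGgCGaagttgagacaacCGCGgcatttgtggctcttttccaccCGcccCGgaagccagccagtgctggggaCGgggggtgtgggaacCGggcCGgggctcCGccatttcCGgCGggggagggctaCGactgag

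The Rbbp5 window held 10 CG, and 37.8% of 32851 RefSeq promoters of the same length held at least as many. Wdr82 held 24 CG (12.0% of promoters with at least as many), Setd1a 25 (10.7%) and Hcfc1 19 (19.7%), against a median of 6 over all promoters. CG is its own reverse complement, so one strand gives the count of both. Wdr5 had 12 CG, the 3 annotated starts of Men1 had 8 to 10, and the 4 starts of Dpy30 ranged from 1 to 34. Wdr82 and Setd1a had nearly equal CG counts, and ratios of 0.414 and 0.875. Among genes of a like mean level, the median log2 ratio was -0.11, -0.47, -0.58 and -0.56 over 4 groups of about equal size, from the promoters with the fewest CG to those with the most, and the median of the mean values also differed between these groups, from 46.25 to 68.

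Of the 10 genes, 8 had a lower value in Cxxc1-deficient cells, and Setd1b and Men1 had a higher one. Rbbp5 and Wdr82 were at least 2-fold lower, while none of the 10 was at least 2-fold higher. Over the 20125 genes above 0 in at least 1 library, 59.9% were lower, 17.3% were lower by 2-fold or more and 5.86% were higher by 2-fold or more. Over the 8875 genes whose mean of both libraries lay within the range of the 10 genes, 38 to 215.5, these shares were 72.8%, 20.4% and 1.58%. The counts of the SET1 complex genes, 8 lower and 2 at least 2-fold lower of 10, were thus near the share of genes of a like level.

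**Figure D1:**
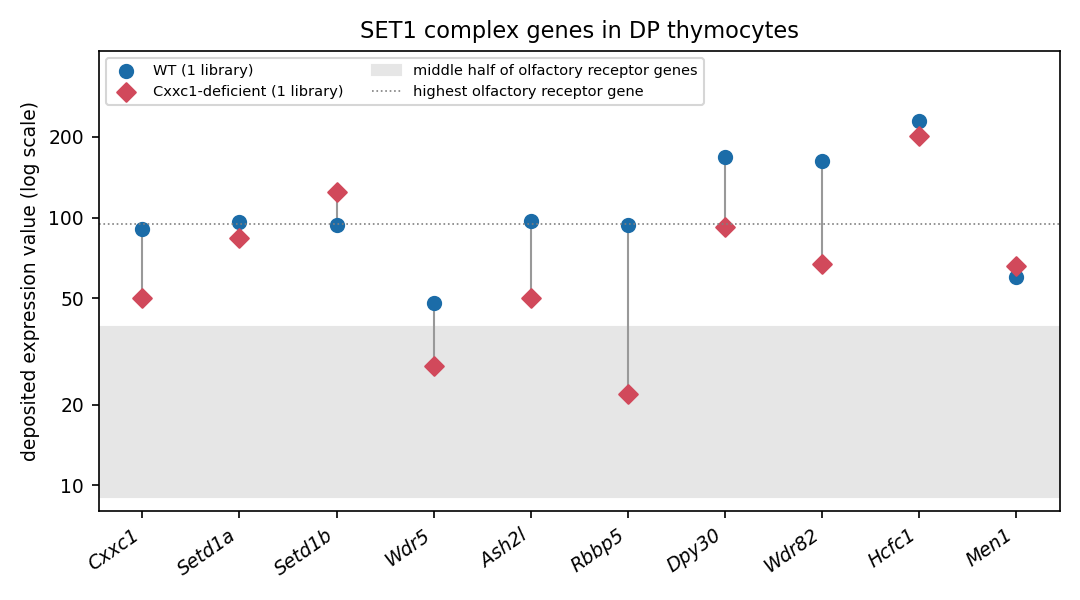
Deposited expression value (log scale) of each SET1 complex gene in the WT library (circles) and the Cxxc1-deficient library (diamonds), 1 library each, joined by a line; the grey area spans the first to the third quartile of 1122 olfactory receptor genes in both libraries and the dotted line is the highest such gene, at 95. Rbbp5 goes from 94 to 22 and Setd1b from 94 to 125.

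Cxxc1 itself was at 91 in the WT and 50 in the deficient library, a ratio of 0.549 (rounding bounds 0.541 to 0.558), which is 1.82-fold lower. The targeted gene was therefore lower in the library labelled KO, but not at 0. Cre removes exons 4 and 5 and creates a new stop codon after exon 3. In the GENCODE annotation of NCBIM37, the build of mm9, Cxxc1 lies at chromosome 18, 74375785 to 74381145, on the + strand, and exons 4 and 5 hold 236 and 192 bases of its 15-exon, 2618-base transcript. These 428 bases are 16.3% of the transcript, and 83.7% remains after the deletion, so a value over the whole gene does not measure how many cells had lost the exons. Of the 3657 genes with a mean of 50 to 100, 26.7% had a ratio at least as low as that of Cxxc1.

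The level of genes that thymocytes do not use gives a scale for such values. The 1122 olfactory receptor genes, which serve odour sensing, had quartiles of 9, 22 and 35 in WT and 10, 24 and 39 in Cxxc1-deficient cells, with highest values of 81 and 95. This scale assumes that values were divided by gene length, which is not stated in the sources used here. In WT, 0% of these genes reached the value of Cxxc1, and in Cxxc1-deficient cells 12.0% did. The 5 genes with the pair of values nearest to that of Cxxc1, by Euclidean distance of log2 values over the 2 libraries, were Mphosph9 (91 and 50), Preb (92 and 50), and Cope, Mbtps2 and Mex3b (each 90 and 50).

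Of the catalytic subunits, as deposited, Setd1a was closer to WT than Cxxc1 was, and Setd1b was higher than WT. The order of Setd1a and Cxxc1 depended on the scaling. With the sums of both libraries set equal, Cxxc1, at 0.869, was closer to WT than Setd1a, at 1.38. Setd1a was at 96 in the WT and 84 in the deficient library, a ratio of 0.875 (0.865 to 0.885). Setd1b was at 94 and 125, a ratio of 1.33 (1.32 to 1.34). Genes with a mean of 100 to 200 had a median log2 ratio of -1.0, so the log2 ratio of Setd1b, 0.41, was 1.41 above that of genes of its level, and 1.81% of those 1605 genes had a ratio at least as high. For Setd1a, with a log2 ratio of -0.19, the difference from the median of its level, -0.53, was 0.34. Setd1a lies on chromosome 7 (134920184 to 134943636, + strand) and Setd1b on chromosome 5 (123592202 to 123617444, + strand). An annotated transcript of Hsd3b7 shares 3523 exon bases, 54.3% of the Setd1a transcript, on the same strand, so the value of Setd1a is uncertain; Hsd3b7 was at 34 and 32.

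The 4 genes of the core module were all lower, by different amounts. Rbbp5, whose WD-repeat protein joins the catalytic subunit to ASH2L, was at 94 in the WT and 22 in the deficient library, a ratio of 0.234 (0.228 to 0.241) or 4.27-fold lower as deposited. It had the lowest ratio of the 10 genes, and 1.48% of genes with a mean of 50 to 100 were at least as low. At 22 it was within the values of olfactory receptor genes, 52.0% of which were at or above it, while in WT 0% reached its value of 94. Of the 50-base windows of the Rbbp5 transcript that do not cross an exon junction, 8.65% occur more than once in the genome, where uniquely mapped reads cannot fall. That share was 1.92% or less for each of the other 9 genes, and its part in the value of Rbbp5 was not tested. Rbbp5 lies on chromosome 1 (134373944 to 134402242, + strand).

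Ash2l, which stimulates the methyltransferase, was at 97 in the WT and 50 in the deficient library, a ratio of 0.515 (0.508 to 0.523). Wdr5, which holds the SET-domain protein to the core, was at 48 and 28, a ratio of 0.583 (0.567 to 0.60). Dpy30, a small subunit that binds ASH2L, was at 169 and 92, a ratio of 0.544 (0.540 to 0.549). These 3 genes and Cxxc1 thus had ratios between 0.515 and 0.583. They differed from genes of their own level by -0.42 (Ash2l), -0.78 (Wdr5) and 0.12 (Dpy30) on the log2 scale, so Dpy30 was close to the median of genes of its level and Wdr5 was lower, with 9.13% of its level at least as low. In Cxxc1-deficient cells 43.0% of olfactory receptor genes were at or above Wdr5, 12.0% at or above Ash2l and 0.0891% at or above Dpy30; in WT the shares were 8.82%, 0% and 0%. The genes lie on chromosome 8 (Ash2l, 26926663 to 26958166, - strand), 2 (Wdr5, 27370677 to 27392055, + strand) and 17 (Dpy30, 74698814 to 74723284, - strand).

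Wdr82, which links SETD1 proteins to RNA polymerase II and is not part of MLL complexes, was at 162 in the WT and 67 in the deficient library, a ratio of 0.414 (0.409 to 0.418) or 2.42-fold lower. Its log2 ratio, -1.27, was 0.27 below the median of genes of its level, and 28.2% of them were at least as low. Although Wdr82 passed the 2-fold line, its value was thus not far from that of genes of the same level. Wdr82 lies on chromosome 9 (106073260 to 106094747, + strand).

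Hcfc1, a cell-cycle cofactor found in SET1 and some MLL complexes, was at 230 in the WT and 201 in the deficient library, a ratio of 0.874 (0.870 to 0.878). Its level had a median log2 ratio of -1.22, which places Hcfc1 1.02 above it, with 5.55% of 703 genes at least as high. Hcfc1 is on the X chromosome (71188131 to 71211696, - strand), where the 251 genes of a like mean to the 10 genes had a median log2 ratio of -0.60, against -0.42 on autosomes. Men1 encodes menin, which belongs to the MLL1 and MLL2 complexes and is not a SET1 subunit. Men1 was at 60 and 66, a ratio of 1.10 (1.08 to 1.12), 0.67 above the log2 median of its level, with 11.7% of genes at least as high. It lies on chromosome 19 (6334979 to 6340891, + strand).

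**Figure D2:**
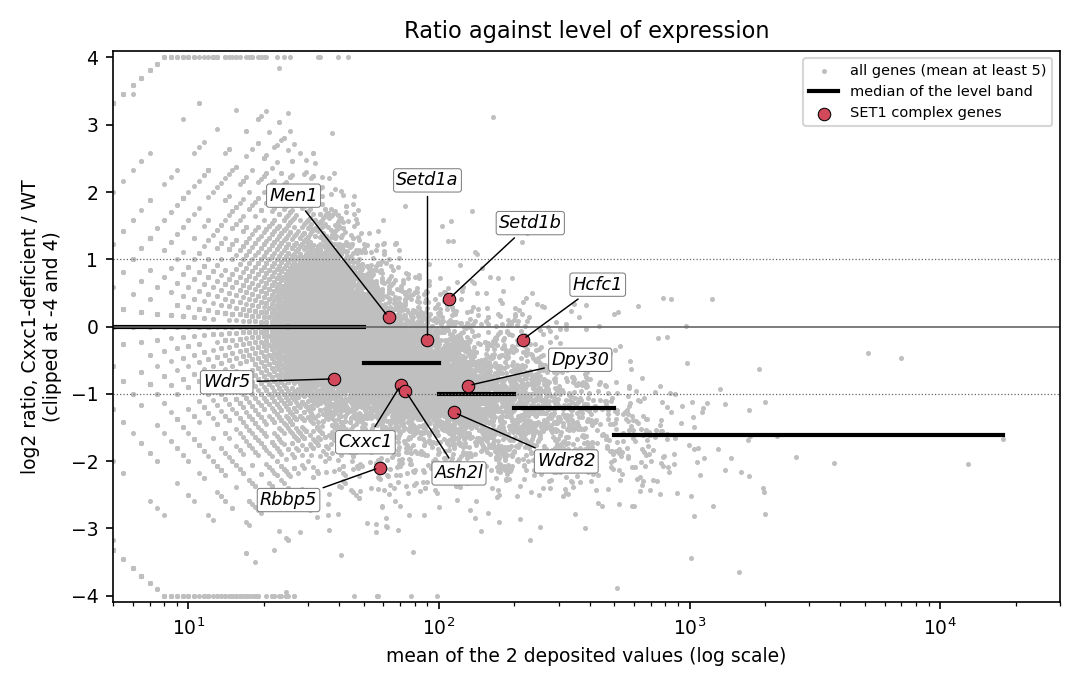
Log2 ratio of Cxxc1-deficient to WT values against the mean of both values (log scale) for genes with a mean of at least 5 (grey) and the SET1 complex genes (red); black bars are the medians of level bands. The medians go from 0 below a mean of 50 to -1.61 at 500 and over; Setd1b, Hcfc1 and Men1 lie above and Rbbp5 below the bar of their level.

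Ratios across the table varied with level, with band medians of 0 at a mean of 25 to 50, -0.53 at 50 to 100, -1.0 at 100 to 200, -1.22 at 200 to 500 and -1.61 at 500 and over. The 10 genes had a median log2 ratio of -0.82, against -0.20 over all genes and -0.42 over genes of a like mean, whose quartiles were -0.89 and 0.03. After subtraction of the band median the median of the 10 genes was -0.08, and without Cxxc1 that of the other 9 was 0.12. The genes therefore spread to both sides of their level: Setd1b, Hcfc1, Men1, Setd1a and Dpy30 above it, and Rbbp5, Wdr5, Ash2l, Cxxc1 and Wdr82 below it. These signs held for all 10 genes with the 200 genes closest in mean, with genes of the same quartile group of GC content, and with genes of the same quartile group of transcript length.

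**Figure D3:**
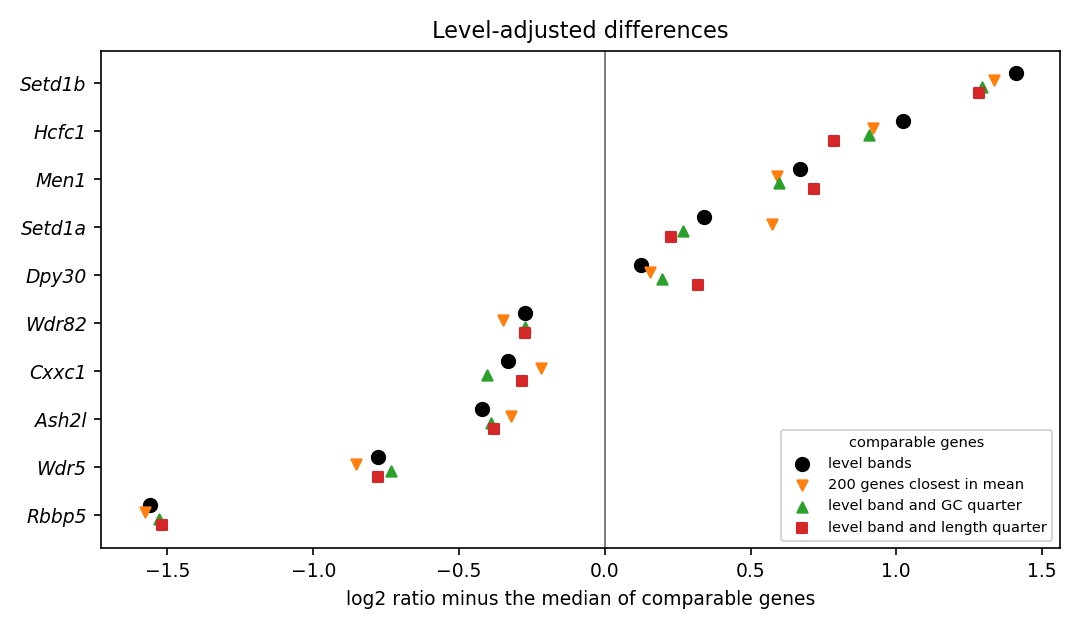
Log2 ratio of each SET1 complex gene minus the median log2 ratio of comparable genes, with comparable genes taken as the level band (black), the 200 genes closest in mean, the level band within a quartile group of GC content, or within one of transcript length. Values run from -1.56 for Rbbp5 to 1.41 for Setd1b with level bands, and no gene changes side.

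GC content of the transcript differed along this order. Setd1b (61.0% GC), Men1 (58.8%), Cxxc1 (58.4%), Setd1a (57.0%) and Hcfc1 (54.4%) were in the highest GC quartile group of genes of a like mean, and 4 of these 5, all but Cxxc1, were the genes with the highest ratios. Wdr5 (51.5%) was in the third group, Wdr82 (47.9%), Ash2l (48.0%) and Rbbp5 (47.3%) were in the second, and Dpy30 (41.8%) in the first. The median log2 ratio of genes of a like mean was -0.50, -0.46, -0.44 and -0.33 from the lowest to the highest GC group, and the part of GC content in the order of the 10 genes was not tested.

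Quotients between members do not depend on a common scaling factor of a library, nor does the change of a quotient depend on gene length. Setd1a over Rbbp5 was 1.02 for WT and 3.82 for the deficient library. Setd1b over Rbbp5 went from 1 to 5.68, and Men1 over Rbbp5 from 0.638 to 3.0. These quotients are of deposited values, background included: at 22 the deficient value of Rbbp5 lay among the olfactory receptor genes, so they give no exact fold of expression. Over Cxxc1, Setd1a went from 1.05 to 1.68 and Setd1b from 1.03 to 2.50. Setd1b over Setd1a went from 0.979 to 1.49, so the deposited value of Setd1b was higher relative to that of its paralogue. The quotients with Setd1a are uncertain, because 54.3% of its transcript is shared with Hsd3b7.

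Directions of single genes against WT did depend on the scaling. Setd1b and Men1 were higher, and Rbbp5 and Wdr82 lower, under each of 8 other settings, and Rbbp5 was at least 2-fold lower under each. Every scaling multiplied the deficient library by a factor above 1, from 1.03 to 2.0, and a pseudocount keeps the direction of a ratio. Setd1b and Men1, higher as deposited, could thus have turned only under the background subtraction. Cxxc1, Wdr5, Ash2l and Dpy30 were lower under 7 of 8, and were at 1.10, 1.16, 1.03 and 1.09 when the median of genes with a mean of at least 100 was set equal. Setd1a and Hcfc1 were lower under 4 of 8, and at 1.14 to 1.75 when the 75th percentile, the sum, the sum without the 100 highest genes or that median was set equal. The ratio of Setd1b ranged from 1.30 to 2.65 and that of Men1 from 1.09 to 2.19 over the 8 settings.

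**Figure D4:**
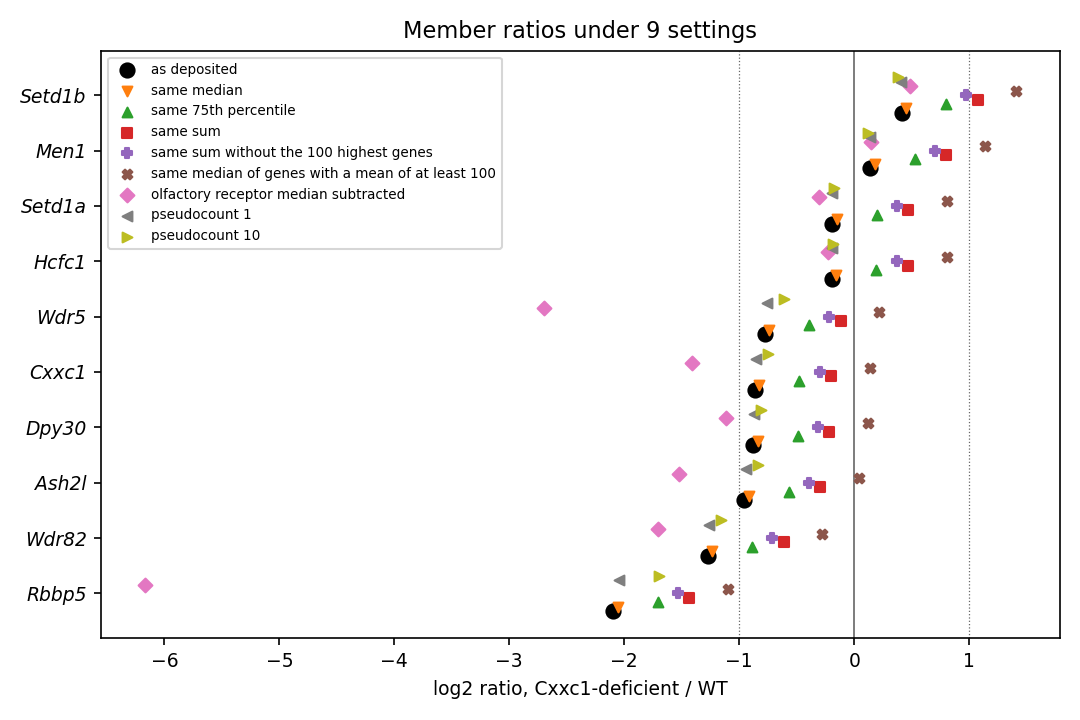
Log2 ratio of Cxxc1-deficient to WT for each SET1 complex gene with values as deposited (black) and under 8 other settings of scaling, background or pseudocount; dotted lines mark 2-fold. Setd1b and Men1 stay above 0 and Rbbp5 and Wdr82 below 0 under every setting. For Setd1b and Men1 the scalings and pseudocounts could not change the side. The leftmost Rbbp5 point has a Cxxc1-deficient value raised to the floor of 1 and gives no fold.

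Genes of related H3K4 pathways were read from 6 lists of 53 different genes. Of the 53, 47 were lower, 5 higher and 1 equal, 20 were lower by 2-fold or more and 0 higher by that much, and their median log2 ratio was -0.87 (-0.13 after subtraction of the band medians), beside -0.82 (-0.08) for the SET1 complex genes. Over all genes 59.9% were lower and 17.3% lower by 2-fold or more. Over the 15901 genes with a mean within the range of the 53, 25 to 569, these shares were 62.7% and 16.2%. That range includes the 9900 genes with a mean of 25 to 50, whose median log2 ratio was 0. The median WT value of the 53 genes was higher, at 141. Over the 5847 genes with a mean of 50.5 to 420.5, the shares were 87.7% and 33.4%. The MLL list, with the catalytic subunits of the other COMPASS-like complexes and their own partners, had 7 of 10 lower and 1 at least 2-fold lower, with a median log2 ratio of -0.44; the sign of that median turned when the sum, the sum without the 100 highest genes or the median of genes with a mean of at least 100 was set equal. Kmt2a, the MLL1 methyltransferase that uses menin, was at 201 in the WT and 229 in the deficient library. Kmt2b, its MLL2 paralogue, was at 84 and 57, and Kmt2c and Kmt2d, which act at enhancers, at 303 and 175 and at 161 and 152. As deposited, Kmt2a and Kmt2d, with ratios of 1.14 and 0.944, were thus closer to WT than Kmt2b and Kmt2c, at 0.679 and 0.578. Setting the sums of both libraries equal multiplies each of these ratios by 1.58, which turns this order. The other genes of the list were Ncoa6 (191 and 227), Pagr1a (69 and 70), Paxip1 (90 and 72), the demethylase Kdm6a (255 and 136), the chromatin tether Psip1 (333 and 173) and Hcfc2 (105 and 39), a paralogue of Hcfc1 that was 2.69-fold lower.

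A list of SET1 complex associates outside the core had 8 of 9 genes lower and 3 at least 2-fold lower, with a median log2 ratio of -0.67. That median was positive when the median of genes with a mean of at least 100 was set equal. The list also holds Dnmt1, whose protein binds CXXC1, and Cxxc5, another CXXC gene, which are not taken here as SETD1 or WDR82 partners. The phosphatase gene Ppp1ca was at 355 in the WT and 131 in the deficient library, Ogt, which adds GlcNAc to HCFC1, at 810 and 328, Bod1 at 43 and 30, and Cxxc5 at 118 and 166. Of 11 other genes with a CXXC zinc finger, 7 were lower, 3 higher and 1 equal, 0 were at least 2-fold lower, and the median was -0.47, again with the other sign under the 3 settings named for the MLL list. Kdm2a, a demethylase that binds CpG islands, was at 371 and 212, Mbd1 at 73 and 42, and Fbxl19 at 27 and 36. Fbxl19, Kdm2b (29 and 21) and Cxxc4, the equal gene (32 and 32), lay between the olfactory receptor quartiles in both libraries. Both lists hold Cxxc5 and Dnmt1, and the CXXC list also holds Kmt2a and Kmt2b.

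All 11 genes of the PAF1 complex and of H2B ubiquitination, which act upstream of H3K4 methylation, were lower, 7 of them at least 2-fold, with a median log2 ratio of -1.34. Of the 5847 genes with a mean within the range of this list and the demethylase and reader lists that follow, 50.5 to 420.5, 87.7% were lower and 33.4% at least 2-fold lower, against 17.3% at least 2-fold lower of all genes. Paf1 was at 166 in the WT and 43 in the deficient library, the ubiquitin-conjugating Ube2a at 191 and 60, the ligase subunit Rnf40 at 84 and 48, and Wac at 150 and 114. All 5 listed H3K4 demethylase genes were lower, 3 at least 2-fold, with a median of -1.16. Among them were Kdm5a (491 and 187), Kdm1a (141 and 62), Kdm1b (116 and 61) and Kdm5c (92 and 63). The list held no Y-linked gene, and Kdm5c, like Kdm6a of the MLL list, lies on the X chromosome. The part in their values of the difference in Y-linked genes between the libraries was not tested. All 11 genes for readers of H3K4me3 were lower, 6 at least 2-fold, with a median of -1.18, among them Ing4 (206 and 44), Spin1 (96 and 23), Ing2 (78 and 57) and the TFIID subunit Taf3 (140 and 112). The medians of these 3 lists were below 0 under each of the 8 other settings, while the medians after subtraction of the level bands were -0.34, -0.18 and 0.03. Genes that remove H3K4 methyl groups and genes that bind H3K4me3 were thus lower together as deposited. Their medians were near those of other genes of their level.

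**Figure D5:**
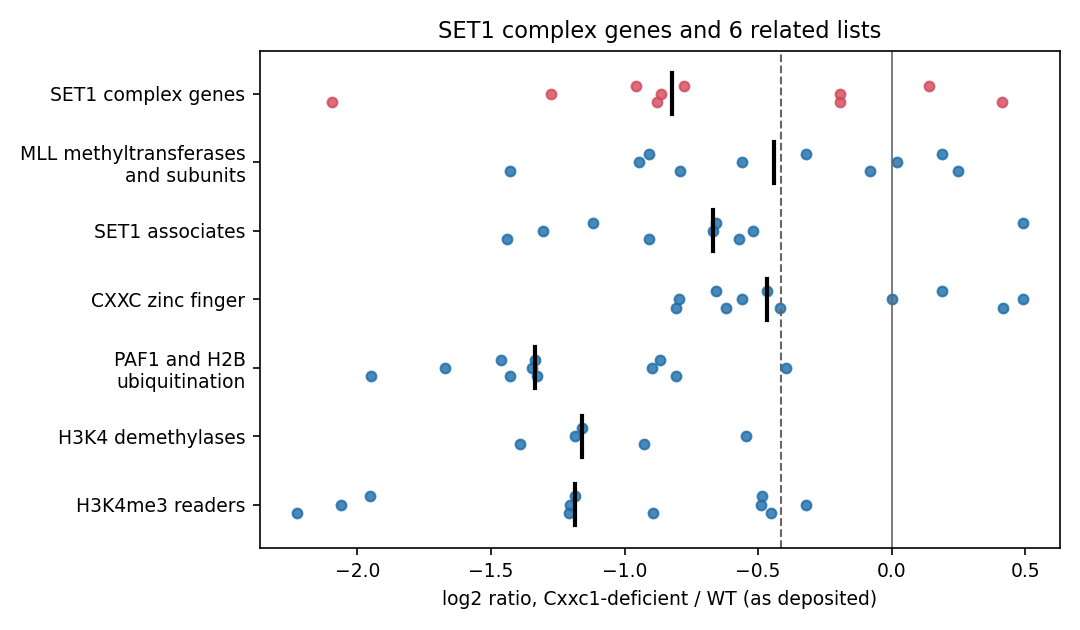
Log2 ratio of Cxxc1-deficient to WT values, as deposited, for the SET1 complex genes (red) and 6 related lists (blue); each point is a gene, black bars are list medians and the dashed line is the median of genes of a like mean, -0.42. List medians range from -0.44 for the MLL list to -1.34 for the PAF1 list.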

How the data were processed

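RNA from DP thymocytes was extracted with TRIzol, and mRNA libraries were sequenced by the authors on an Illumina HiSeq instrument as 50-base reads. The submitters' processing notes name CASAVA 1.8.2, Bowtie 1.0.1, Partek and mm9; uniquely mapped reads were used. The deposited value is a score, an expression value per gene normalized by the authors and rounded to whole numbers, whose formula and gene annotation are not given in the sources used here. Unique mapping lowers values of genes with near-identical copies.

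Libraries were assigned to WT and Cxxc1-deficient by their titles. Values below 1 were raised to 1, and ratios, 2-fold counts and log2 differences from bands of mean level (edges 25, 50, 100, 200 and 500) were computed in Python 3.11.15 with numpy 2.4.6 and pandas 2.3.3; scripts were tested on simulated data. No test was possible with 1 library per genotype. Positions, lengths and GC content came from the longest transcript in GENCODE vM1 on NCBIM37. The genes and lists were chosen with earlier results of these data known. Named genes were all 10 members, every gene of the MLL list and the 5 genes nearest to Cxxc1. From each other list they were the 2 lowest and 2 highest ratios among genes with a mean of at least 25. For marker lists, sums and some single genes are given. Alternatives were other scalings, an olfactory receptor background, pseudocounts of 1 and 10, thresholds and a filter at a mean of 50. ChIP-seq data were not analysed here.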

Additional observations from a re-analysis of the deposited data

How the results depend on the processing

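The ratio of Cxxc1, 0.549 as deposited, was 0.869 when the sums of both libraries were set equal, 1.10 when the median of genes with a mean of at least 100 was, and 0.377 when the olfactory receptor median was subtracted. The median log2 ratio of the 10 genes, -0.82 as deposited, was -0.16, 0.18 and -1.26 under these settings. The number of lower genes went from 8 to 2 when the median of genes with a mean of at least 100 was set equal. The number at least 2-fold lower went from 2 to 1 under that setting, with the 75th percentile, with the sum and with the sum without the 100 highest genes set equal, and to 6 with the olfactory receptor median subtracted; it was 6 at a 1.5-fold and 1 at a 3-fold threshold. The all-gene median log2 ratio shifted by 0.39 (75th percentile), 0.66 (sum), 0.56 (sum without the 100 highest genes), 1.0 (median of genes with a mean of at least 100) and -0.24 (olfactory receptor median), and the share of all genes that were lower from 59.9% to 40.2%, 28.5%, 32.5%, 17.4% and 58.2%. Of 72 ratios of the other 9 genes under alternatives, 44 stayed within 1.5-fold and on their side of the 2-fold line and of 1, and 28 did not. The GC and length comparisons were chosen after seeing the data. The depth is unknown, so counting error could not be given for any gene. No paired analysis was possible because there was no second library: a genotype had 1 library and no result came from a test.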
